A study of Mus musculus with 16 samples.

Results

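The NRF2 and glutathione system was followed as 10 mouse genes: Nfe2l2, Keap1, Slc7a11, Gclc, Gclm, Gsr, Nqo1, Txnrd1, Srxn1 and Gpx4. They were chosen by symbol, through the Ensembl identifiers of the count files, and all 10 were found among 55359 counted genes. All 10 also passed the filter on low counts, which left 17190 genes for testing. The libraries came from MPI-2 cells, a wild-type line of self-renewing mouse macrophages labelled alveolar-like and kept in GM-CSF, the growth factor that maintains alveolar macrophages. There were 4 groups of 4 libraries each: cells exposed to Mycobacterium abscessus (a fast-growing mycobacterium that infects lungs) at day 1 and at day 5, and uninfected cells at day 1 and at day 5. All libraries are poly-A RNA from 1 line over a wide range of passages, and the bacterial dose and strain are not given in the sources used here. The replicates are labelled biological, and whether they were separate cultures is not stated, so p-values measure the spread between these libraries.

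NRF2, the protein of Nfe2l2, is a transcription factor that KEAP1 marks for degradation until electrophiles or oxidants modify KEAP1. It then enters the nucleus and acts at antioxidant response elements beside genes for cystine import, glutathione synthesis and reductases. SLC7A11, with its partner SLC3A2, brings cystine into the cell in exchange for glutamate. Glutamate-cysteine ligase, made of the catalytic subunit GCLC and the modifier subunit GCLM, joins cysteine to glutamate, GSS adds glycine to complete glutathione, and GSR reduces oxidised glutathione again. GPX4 uses glutathione to reduce lipid peroxides, and the thioredoxin reductase TXNRD1 runs the parallel thioredoxin system. Slc7a11 is also a textbook target of ATF4, the transcription factor of the amino acid response, which acts at amino acid response elements.

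Promoter letters are shown for Slc7a11 (a cystine carrier that rose), Gclm (a ligase subunit that fell) and Srxn1 (a redox enzyme that rose late). Their windows hold matches to different motifs among the 3 searched. RefSeq windows of 250 bases before the start site were matched for 8 of the 10 genes, all but Gclc and Gsr (13 windows, GRCm38.p6, an older build than the one used for counting). Capitals mark matches on either strand to TGATGNAA (amino acid response element), TGACNNNGC (antioxidant response element) or TGANTCA (AP-1 element); an AP-1 match can overlap an antioxidant response element. The windows are Slc7a11 at chr3:50443614-50443863 (minus strand), Gclm at chr3:122245307-122245556 (plus strand) and Srxn1 at chr2:152105274-152105523 (plus strand), each printed 5′ to 3′ toward the start site.
Slc7a11: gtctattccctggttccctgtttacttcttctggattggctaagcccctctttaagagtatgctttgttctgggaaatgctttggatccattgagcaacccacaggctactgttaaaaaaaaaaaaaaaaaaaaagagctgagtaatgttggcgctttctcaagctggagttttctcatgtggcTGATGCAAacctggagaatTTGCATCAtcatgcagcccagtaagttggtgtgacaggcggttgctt
Gclm: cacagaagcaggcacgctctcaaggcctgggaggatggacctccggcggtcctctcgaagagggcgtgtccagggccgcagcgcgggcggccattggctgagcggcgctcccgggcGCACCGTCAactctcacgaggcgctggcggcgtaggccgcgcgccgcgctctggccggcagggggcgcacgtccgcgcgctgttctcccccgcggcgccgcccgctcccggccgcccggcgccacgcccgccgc
Srxn1: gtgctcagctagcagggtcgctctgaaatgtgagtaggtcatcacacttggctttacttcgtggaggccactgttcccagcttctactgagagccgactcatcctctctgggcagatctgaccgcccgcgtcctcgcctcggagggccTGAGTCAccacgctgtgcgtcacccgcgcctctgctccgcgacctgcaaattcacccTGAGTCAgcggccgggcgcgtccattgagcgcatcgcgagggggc
The Slc7a11 window held 2 matches to TGATGNAA, at -66 to -59 on the plus strand of the gene and at -47 to -40 on the other strand. A match to TGATGNAA was found in 3.45% of 32851 mouse promoter windows, and 2 or more matches in 13 windows (0.0396%). No other member's window held that motif. The Gclm window held 1 match to TGACNNNGC at -134 to -126, a motif present in 10.2% of windows, and Nfe2l2 and Txnrd1 each had a window with 1 such match. The Srxn1 window held 2 copies of TGAGTCA, at -102 to -96 and at -45 to -39, and TGANTCA was found in 6.75% of windows. The copy at -45 continues as TGAGTCAGC, which differs from TGACNNNGC only by G in place of C. An antioxidant response element there is thus not excluded by the lack of a match. None of the 3 motifs was in the windows of Keap1, Nqo1 or Gpx4. A match is only a description of these letters, and binding was not measured. Whether any motif goes with the direction of change was not tested.

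Library totals were 46154875 to 81995629 counts. Values of single genes below are CPM (counts scaled to the library total, after TMM), given as mean ± SD over 4 libraries. Marker levels in this paragraph are scaled to the library total without TMM, and their sums run from the lowest to the highest library. The label was checked against markers: all 13 alveolar macrophage markers and all 8 general macrophage and leukocyte markers averaged at least 1 CPM over the 16 libraries. The alveolar macrophage markers summed to 11950 to 15280 CPM in exposed day 5 libraries and to 22170 to 28990 CPM in uninfected day 5 libraries. The general macrophage markers summed to 7137 to 13410 CPM in exposed day 5 libraries and to 3779 to 4214 CPM in uninfected day 5 libraries. Of 16 markers of other cell types 4 averaged at least 1 CPM over the 16 libraries. The 16 markers summed to 355 to 911 CPM in exposed and 450 to 608 CPM in uninfected day 5 libraries. Epcam, Sftpc, Cd3e, Col1a2 and Flt3 were at 0 in exposed day 5 libraries. At day 1 the sums were 15170 to 17230 CPM in exposed and 19020 to 20090 CPM in uninfected libraries for alveolar macrophage markers, and 5829 to 6393 CPM in exposed and 3576 to 3786 CPM in uninfected libraries for general macrophage markers. Markers of other cell types summed to 768 to 1106 CPM in exposed and 312 to 395 CPM in uninfected day 1 libraries, so all 3 sums were apart at day 1. The part of these marker shifts in the values below was not tested, and in bulk RNA fewer cells of a type and less RNA per cell cannot be told apart. Within the exposed day 5 group, replicates 2 and 3 carry another series of library codes in their file names. Of all libraries of that group, replicate 3 had the lowest Slc7a11, Txnrd1, Srxn1, Gclm, Gclc, Nfe2l2 and Keap1. It also had the highest Gpx4, Gsr and Nqo1, so it was at an end of the range for every member.

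The RNA of the cystine exchanger gene Slc7a11 was higher in exposed cells on both days, and those of Gclc, Gclm and Gsr were lower. The gaps for Slc7a11, Gclc and Gsr were wider at day 5 than at day 1. Genes were called at an adjusted p under 0.05 (edgeR quasi-likelihood fit, Benjamini-Hochberg over 17190 genes). By that measure 3 of the 10 genes were higher at day 1 (Slc7a11, Nfe2l2 and Gpx4), where 13.4% of all genes tested were higher. Another 3 were lower (Gclc, Gclm and Gsr), where 10.5% of all genes were lower. At day 5, 4 were higher (Slc7a11, Srxn1, Gpx4 and Txnrd1) against 28.6% of all genes, and 4 were lower (Gclc, Gsr, Gclm and Nqo1) against 28.4%. The median log2 fold change of the 10 was -0.04 at day 1 and 0.01 at day 5, beside 0.03 and 0.02 over all genes tested, so the set as a whole had no common direction. The exposure effect itself was different between days for 5 of the 10. It was higher at day 5 for Slc7a11, Txnrd1 and Srxn1 (3 of 10, against 16.4% of all genes) and lower for Gclc and Gsr (2 of 10, against 19.5%).

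**Figure D1:**
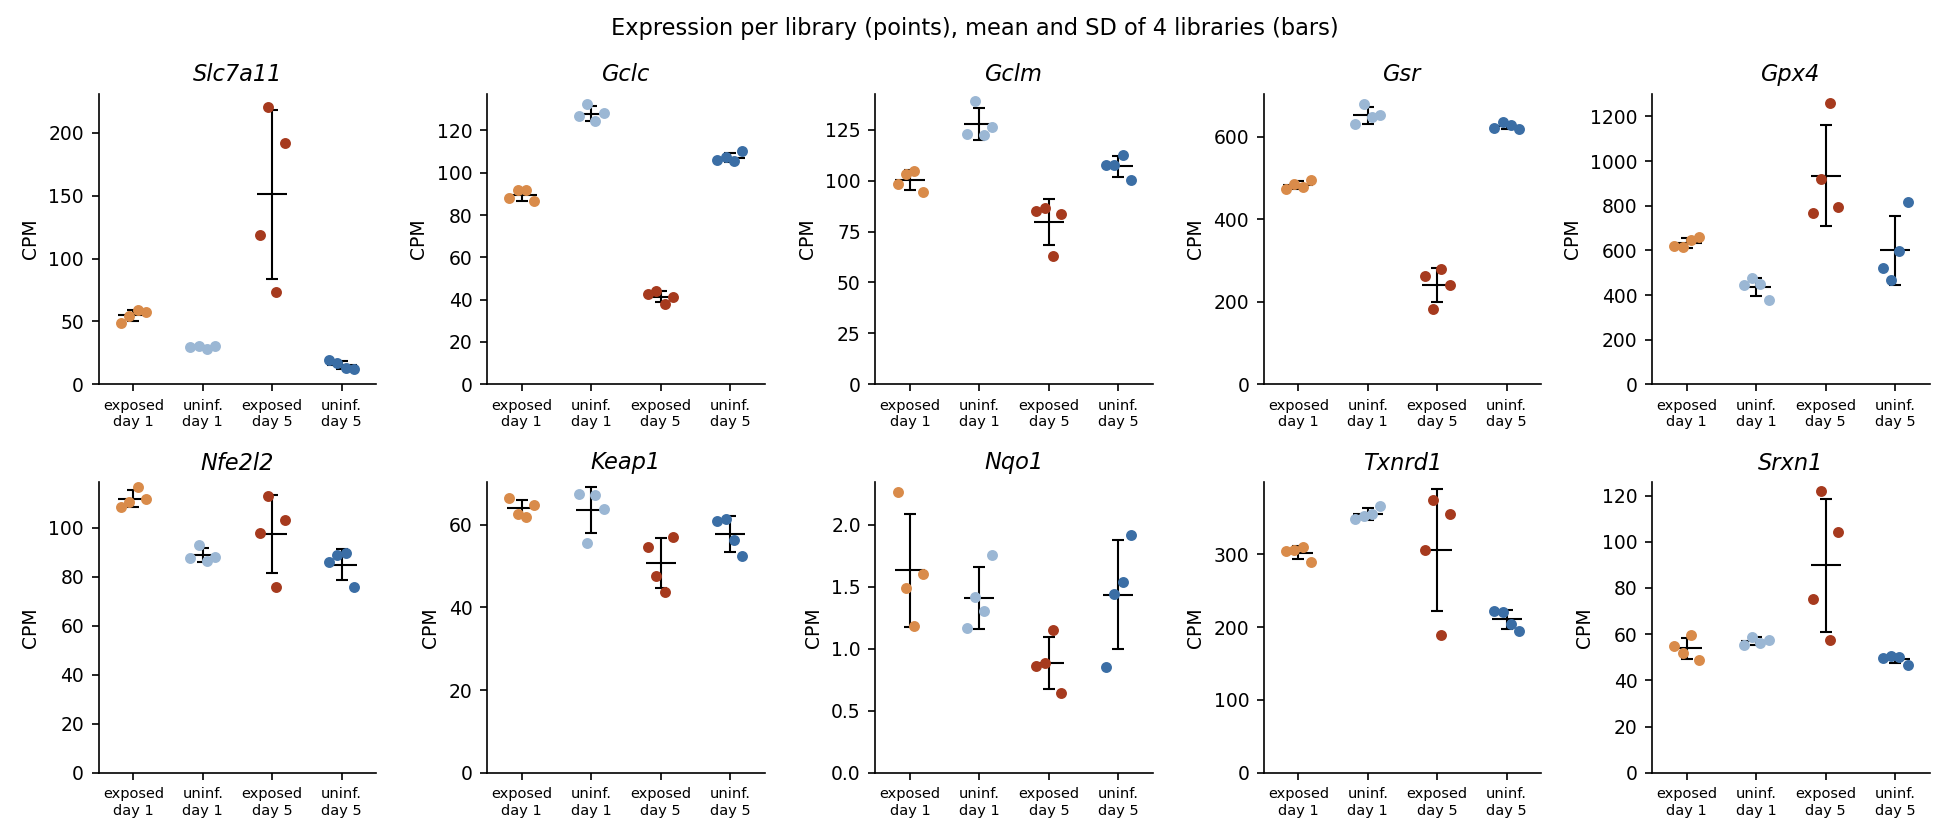
CPM of the 10 genes in each of the 16 libraries (points), with the mean and SD of 4 libraries per group (bars); each panel has its own linear axis from 0. Slc7a11 sits between 73.4 and 221 CPM in exposed day 5 libraries, above the highest uninfected day 5 library at 19.3 CPM, while all exposed libraries lie below the uninfected ones of the same day for Gclc, Gclm and Gsr.

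Slc7a11 (ENSMUSG00000027737.11), the transport subunit of the cystine-glutamate exchanger, had 49.1, 54.2, 58.7 and 57.7 CPM in exposed day 1 libraries, against 29.6, 30.6, 28.0 and 30.3 CPM in uninfected day 1 libraries. At day 5 it had 118.5, 221, 73.4 and 192 CPM in exposed libraries, against 19.3, 16.7, 12.97 and 12.5 CPM in uninfected libraries. The groups did not overlap on either day, and the exposed day 5 libraries were spread widely, with replicates 2 and 4 high and replicate 3 low. The level was 54.9 ± 4.35 CPM in exposed and 29.6 ± 1.16 CPM in uninfected cells at day 1, a log2 fold change of 0.89 (SE 0.241, adjusted p = 0.0135). At day 5 it was 151 ± 67.3 CPM in exposed and 15.4 ± 3.22 CPM in uninfected cells, a log2 fold change of 3.30 (SE 0.261, adjusted p = 1.53e-08), or 9.82-fold higher. The log2 effect changed by 2.41 from day 1 (SE 0.344, adjusted p = 5.92e-05). Both arms moved between days: from day 1 to day 5 Slc7a11 rose in exposed cells (log2 fold change 1.46, adjusted p = 9.15e-05) and fell in uninfected cells (log2 fold change -0.95, adjusted p = 0.0123). The day 1 call was lost when no filter on low counts was applied (adjusted p = 0.071), and the fall in uninfected cells was lost without uninfected day 5 replicate 4 (adjusted p = 0.0575).

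The partner chain Slc3a2, which SLC7A11 needs at the membrane, had 411, 638, 294 and 620 CPM in exposed day 5 libraries, against 295, 288, 293 and 258 CPM in uninfected day 5 libraries. Exposed replicate 3 was within the uninfected range and the other exposed libraries were above it. The log2 fold change was 0.79 at day 5 (SE 0.165, adjusted p = 0.000454) and -0.05 at day 1 (adjusted p = 0.852). Cth, the enzyme that releases cysteine from cystathionine, had a larger fold change. It had 48.1 CPM on average in exposed and 3.44 CPM in uninfected cells at day 5, a log2 fold change of 3.81 (adjusted p = 3.48e-10), after 0.88 at day 1 (adjusted p = 0.0085).

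Gclc (ENSMUSG00000032350.10), the catalytic subunit of glutamate-cysteine ligase, had 88.1, 91.9, 91.7 and 86.4 CPM in exposed day 1 libraries, against 127, 133, 124 and 128 CPM in uninfected day 1 libraries. Day 5 values were 42.5, 44.0, 37.8 and 41.1 CPM in exposed libraries, against 106, 107, 106 and 110 CPM in uninfected libraries. The groups did not overlap, and the 4 exposed day 5 libraries lay close together, unlike those of Slc7a11. Gclc had a log2 fold change of -0.52 at day 1 (SE 0.0634, adjusted p = 8.94e-06) and -1.37 at day 5 (SE 0.0646, adjusted p = 2.72e-12). The day 5 level was 41.4 ± 2.63 CPM in exposed and 107 ± 2.05 CPM in uninfected cells, and the log2 effect changed by -0.86 from day 1 (adjusted p = 1.06e-06). Gclc fell from day 1 to day 5 in exposed cells (log2 fold change -1.11, adjusted p = 1.8e-10) and by less in uninfected cells (-0.26, adjusted p = 0.00792), where the call was lost with no filter on low counts (adjusted p = 0.051).

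Gclm (ENSMUSG00000028124.16), the modifier subunit, had 98.3, 103.5, 105 and 94.5 CPM in exposed day 1 libraries, against 123, 139, 123 and 126.5 CPM in uninfected day 1 libraries. Day 5 exposed and uninfected libraries were apart too, at 85.1, 86.8, 62.8 and 83.8 CPM in exposed libraries against 108, 107.5, 112.5 and 100.4 CPM in uninfected libraries. The groups did not overlap on either day, and exposed day 5 replicate 3 stood below its 3 companions. For Gclm the log2 fold change was -0.35 at day 1 (SE 0.0897, adjusted p = 0.00851) and -0.43 at day 5 (SE 0.0899, adjusted p = 0.000459). The change of the effect between days was -0.08 (adjusted p = 0.673), so a wider gap at day 5 was not detected for Gclm as it was for Gclc. Gss, which completes glutathione, averaged 19.9 CPM in exposed and 25.0 CPM in uninfected cells at day 5 (log2 fold change -0.33, adjusted p = 0.00651), with overlapping libraries. At day 1 Gss was also called lower, without overlap. It had 20.0, 19.3, 21.1 and 17.2 CPM in exposed day 1 libraries, against 22.9, 26.3, 24.3 and 22.9 CPM in uninfected day 1 libraries. The day 1 call was lost without exposed day 1 replicate 2 or 4 or uninfected day 1 replicate 2 or 3.

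Gsr (ENSMUSG00000031584.17), glutathione reductase, had 474, 485, 477 and 494 CPM in exposed day 1 libraries, against 629.5, 680, 648 and 651.5 CPM in uninfected day 1 libraries. Later, at day 5, it had 262, 183, 278 and 239.5 CPM in exposed libraries, against 620.4, 636, 629 and 618.5 CPM in uninfected libraries. All exposed libraries were below all uninfected ones, with exposed day 5 replicate 2 lowest. For Gsr the log2 fold change was -0.43 at day 1 (SE 0.0998, adjusted p = 0.00401) and -1.38 at day 5 (SE 0.102, adjusted p = 1.13e-09). The log2 effect changed by -0.94 from day 1 (adjusted p = 4.99e-05), and Gsr in uninfected cells showed no call between days (log2 fold change -0.06, adjusted p = 0.724).

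**Figure D2:**
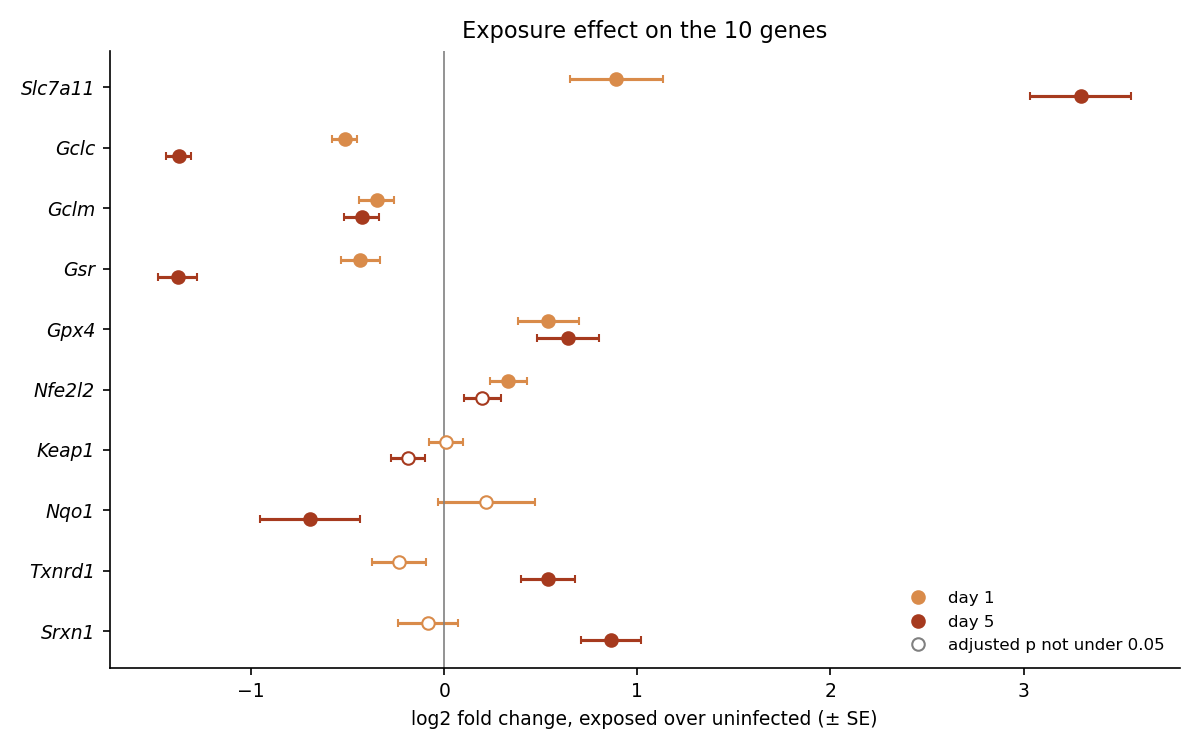
Log2 fold change of exposed over uninfected cells for the 10 genes at day 1 and day 5, with its SE; open symbols have an adjusted p not under 0.05. Slc7a11 lies at 0.89 and 3.30, while Gclc (-0.52 and -1.37), Gsr (-0.43 and -1.38) and Gclm (-0.35 and -0.43) lie below 0 on both days.

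The ratio of 2 counts within a library does not depend on how libraries are scaled, so the divergence was also measured that way. The log2 ratio of Slc7a11 to Gclc counts was 1.48, 2.33, 0.96 and 2.22 in exposed day 5 libraries, against -2.46, -2.68, -3.03 and -3.14 in uninfected day 5 libraries. Slc7a11 reads thus outnumbered Gclc reads in every exposed day 5 library and in none of the uninfected ones. These counts are not corrected for gene length (13922 annotated exon bases for Slc7a11 and 3766 for Gclc). Only the change of the ratio between groups is therefore read, and levels per kb are given below. The mean log2 ratio was 1.75 ± 0.648 in exposed and -2.82 ± 0.313 in uninfected cells at day 5, a difference of 4.57, or 23.8-fold. At day 1 it was -0.71 ± 0.118 in exposed and -2.11 ± 0.0306 in uninfected cells, a difference of 1.40, or 2.65-fold. For Slc7a11 to Gclm the differences were 3.63 at day 5 and 1.24 at day 1. Each of these was at the smallest p an exact two-sided permutation test of 4 against 4 libraries can give (p = 0.0286, adjusted over 12 ratio tests to 0.0312). Slc7a11 was already above, and Gclc and Gclm below, all uninfected libraries of the same day in every exposed library. Full separation of these ratios, and so this p, followed from that and adds no further evidence of divergence.

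The count ratio of the ligase subunits also shifted. The log2 ratio of Gclc to Gclm counts was -1.001, -0.98, -0.73 and -1.03 in exposed day 5 libraries, against -0.02, -0.00, -0.09 and 0.13 in uninfected day 5 libraries. Counts of the subunits were nearly equal in uninfected libraries, and Gclc counts were below Gclm counts in every exposed library. These counts are not corrected for gene length, so only the change of the ratio between groups is read. Per kb of annotated exon, Gclc was above Gclm in uninfected day 1 cells (34.0 against 20.3 CPM per kb). The mean was -0.94 ± 0.137 in exposed and 0.00 ± 0.0937 in uninfected cells at day 5 (1.92-fold), and -0.16 ± 0.0264 in exposed and 0.00 ± 0.0494 in uninfected cells at day 1, both at the smallest possible p (exact permutation p = 0.0286, adjusted 0.0312). Between days the ratio fell in exposed cells (difference -0.77, same p) and in uninfected cells the difference was -0.0008 (exact permutation p = 1).

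**Figure D3:**
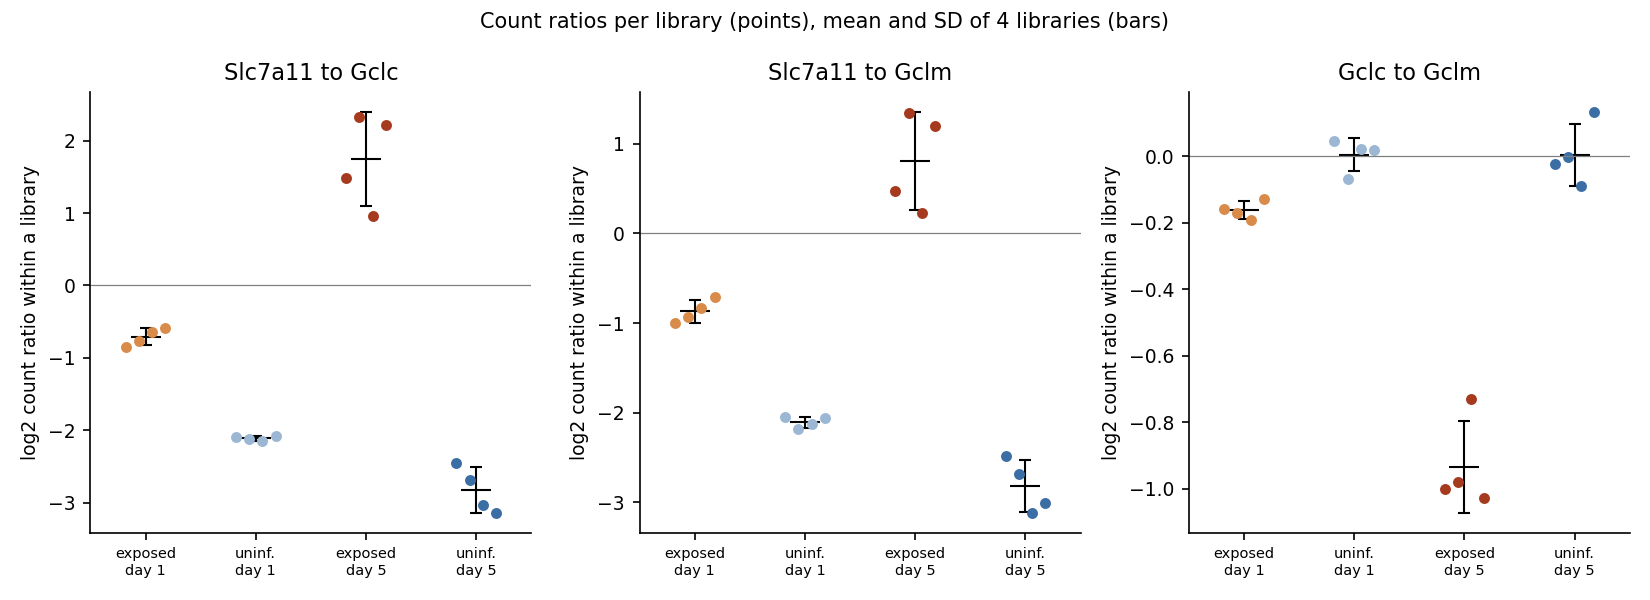
Log2 ratio of counts within each of the 16 libraries (points) for Slc7a11 to Gclc, Slc7a11 to Gclm and Gclc to Gclm, with the mean and SD of 4 libraries per group (bars); the grey line marks equal counts. Both Slc7a11 ratios are above 0 in exposed day 5 libraries alone, and the Gclc to Gclm ratio there lies between -1.03 and -0.73. Counts are not corrected for gene length, so the side of the line is not a comparison of levels between genes.

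Gpx4 (ENSMUSG00000075706.12), the lipid peroxide reductase, had 619, 614, 645 and 662 CPM in exposed day 1 libraries, against 444, 477, 447 and 379 CPM in uninfected day 1 libraries. Day 5 values were 769, 919, 1259 and 794 CPM in exposed libraries, against 519, 468, 597 and 816 CPM in uninfected libraries. The day 1 groups were separate, while uninfected day 5 replicate 4 was above exposed replicates 1 and 4. Gpx4 had a log2 fold change of 0.54 at day 1 (SE 0.159, adjusted p = 0.0187) and 0.64 at day 5 (SE 0.159, adjusted p = 0.00197). The day 1 call was lost without uninfected day 1 replicate 4 (adjusted p = 0.0688), and the day 5 value lay between 0.38 and 0.82 across 24 alternative settings. A processed copy, Gpx4-ps2, is annotated, and how reads shared with it were assigned is not stated.

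Nfe2l2 (ENSMUSG00000015839.7), the gene of NRF2 itself, had 108.5, 110.4, 117 and 112 CPM in exposed day 1 libraries, against 87.7, 92.9, 86.4 and 88.2 CPM in uninfected day 1 libraries. At day 5 it had 97.9, 113, 75.7 and 103 CPM in exposed libraries, against 86.0, 88.7, 89.5 and 75.6 CPM in uninfected libraries. Exposed libraries were above all uninfected ones at day 1, and at day 5 exposed replicate 3 fell among the uninfected ones. The log2 fold change was 0.33 at day 1 (SE 0.0951, adjusted p = 0.0158), lost without exposed day 1 replicate 3 (adjusted p = 0.051). At day 5 it was 0.20 (adjusted p = 0.0843), and 0.30 without exposed day 5 replicate 3 (adjusted p = 0.00109). Keap1 (ENSMUSG00000003308.16), the repressor, averaged 63.9 ± 2.16 CPM in exposed and 63.5 ± 5.54 CPM in uninfected cells at day 1 (log2 fold change 0.01, adjusted p = 0.952). At day 5 it averaged 50.7 ± 6.15 CPM in exposed and 57.7 ± 4.27 CPM in uninfected cells (log2 fold change -0.19, adjusted p = 0.0808), with overlapping libraries. RNA levels of this pair do not measure how much NRF2 protein was in the nucleus.

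Srxn1 (ENSMUSG00000032802.9), sulfiredoxin, which repairs over-oxidised peroxiredoxins, had 75.2, 122, 57.6 and 104 CPM in exposed day 5 libraries, against 49.9, 50.5, 50.3 and 46.7 CPM in uninfected day 5 libraries. The exposed libraries were all above the uninfected ones, in the order of their Slc7a11 levels. Srxn1 had a log2 fold change of 0.86 at day 5 (SE 0.155, adjusted p = 0.000115) and -0.08 at day 1 (adjusted p = 0.742), and the change between days was 0.95 (adjusted p = 0.00264). At day 1 Srxn1 averaged 53.8 ± 4.55 CPM in exposed and 57.0 ± 1.63 CPM in uninfected cells.

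Txnrd1 (ENSMUSG00000020250.12), cytosolic thioredoxin reductase, had 305, 374, 188.5 and 355 CPM in exposed day 5 libraries, against 222, 220.0, 205 and 195 CPM in uninfected day 5 libraries. Exposed replicate 3 was below every uninfected library and the other 3 were above. The log2 fold change was 0.54 at day 5 (SE 0.14, adjusted p = 0.00277). The level was 306 ± 83.3 CPM in exposed cells at day 5 and 302 ± 9.12 CPM at day 1, while uninfected cells had 211 ± 13.1 CPM at day 5 and 355 ± 8.05 CPM at day 1. The day 5 difference stood beside a fall in uninfected cells between days (log2 fold change -0.76, adjusted p = 0.000943), and exposed cells showed no call between days (0.02, adjusted p = 0.93, or 0.19 with adjusted p = 0.041 without exposed day 5 replicate 3). At day 1 all exposed libraries were below the uninfected ones (log2 fold change -0.23, adjusted p = 0.238), which became a call without exposed day 5 replicate 3 (adjusted p = 0.016). Nqo1 (ENSMUSG00000003849.9), a quinone reductase often used as the marker of NRF2 activity, was barely present. It had 0.865, 0.888, 1.15 and 0.642 CPM in exposed day 5 libraries, against 0.851, 1.44, 1.54 and 1.92 CPM in uninfected day 5 libraries, with overlap. Its day 5 log2 fold change of -0.69 (SE 0.259, adjusted p = 0.0286) was lost under 6 of 24 alternatives, among them the removal of uninfected day 5 replicate 4 (adjusted p = 0.107).

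Between days without exposure, 1 of the 10 genes was higher at day 5 (Gpx4, against 10.8% of all genes) and 3 were lower (Slc7a11, Txnrd1 and Gclc, against 8.91%). The Gpx4 call rested on an adjusted p of 0.0494 and was lost under 15 of 24 alternatives. In exposed cells 3 of the 10 were higher at day 5 than at day 1 (Slc7a11, Srxn1 and Gpx4, against 25.6% of all genes) and 5 were lower (Gclc, Gsr, Nqo1, Keap1 and Gclm, against 25.2%). These comparisons share libraries with the exposure comparisons. Without exposed day 5 replicates 2 and 3, the Keap1 fall (adjusted p = 0.066) and the Gpx4 rise (adjusted p = 0.128) in exposed cells were no longer called.

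Levels can be compared between genes only per length. In uninfected day 1 cells Gpx4 (253 ± 23.9 CPM per kb of annotated exon) and Gsr (237 ± 7.50) were on top and did not differ beyond their spread, followed by Txnrd1 (50.1 ± 1.14), Gclc (34.0 ± 0.923) and Nfe2l2 (23.4 ± 0.744). Gclm (20.3 ± 1.23) and Srxn1 (20.2 ± 0.576) were alike within their spread, then came Keap1 (13.5 ± 1.18), Slc7a11 (2.13 ± 0.083) and Nqo1 (0.908 ± 0.162). Slc7a11 was thus among the lowest of the 10 at rest. In exposed day 5 cells its level was 10.9 ± 4.84 CPM per kb, beside 10.98 ± 0.697 for Gclc, against 1.11 ± 0.231 and 28.5 ± 0.544 CPM per kb for Slc7a11 and Gclc in uninfected day 5 cells.

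Likeness was ranked among tested genes with a mean of at least 5 CPM and a symbol that is no predicted or clone name. Closest to Slc7a11 in centred log2 CPM over the 16 libraries were Sema4d, Zc3h12c, Serpinb8, Tapbp and Tent5c (root mean square difference 0.31 to 0.33). For Gclc they were Impdh2, Fam111a, Nin, Ctps and Stard7 (0.10 to 0.13). For Gclm they were Caprin1, Syncrip, Polr2m, Mapk6 and Khdrbs1 (0.05 to 0.06). No gene was shared between these 3 sets of 5. The points share libraries and groups, and the likeness is a description.

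The other genes of the pathway were read from 9 lists that leave out the 10 genes. Beside their counts stand the shares of all genes tested: 13.4% were higher and 10.5% lower in exposed cells at day 1, and 28.6% were higher and 28.4% lower at day 5. A count near those shares is not a result about its list, and several day 1 counts moved by over 1.5 times when a single library was left out. In the list of cystine import and cysteine supply, 5 of 10 tested genes rose and 3 fell at day 5, with a median log2 fold change of 0.35 beside 0.02 over all genes. Slc1a4, a neutral amino acid exchanger, averaged 4.89 CPM in exposed and 0.457 CPM in uninfected cells at day 5 (log2 fold change 3.42, adjusted p = 2.68e-09), and Slc1a5, a glutamine and neutral amino acid carrier, 252 CPM in exposed and 172.5 CPM in uninfected cells (0.55, adjusted p = 5.32e-06). Ahcy, which makes homocysteine from S-adenosylhomocysteine, fell (-0.71, adjusted p = 3.15e-06). At day 1, 4 of the 10 rose and 1 fell (median 0.07), and 2 rose with total-count scaling or without exposed day 1 replicate 1 or 4 or any uninfected day 1 library.

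In the list of glutathione synthesis, recycling and breakdown, 4 of 12 rose and 5 fell at day 5 (median -0.11). At day 1, 0 rose and 1 fell (Gss). The day 1 fall was absent (0 genes) without exposed replicate 2 or 4 or uninfected replicate 2 or 3 of that day, and 2 fell with total-count scaling or without exposed day 5 replicate 3. At day 1, 1 rose without exposed day 5 replicate 1 or 4, with total-count scaling or with a filter of 1 CPM in 4 libraries, 2 rose without exposed day 5 replicate 2, 3 or both (2 fell without both), and 3 rose and 2 fell in the fit of the day 1 libraries alone. The gene that rose most was Chac1, which encodes an enzyme that degrades glutathione in the cytosol. It had 15.7, 26.6, 13.1 and 19.6 CPM in exposed day 5 libraries, against 4.44, 4.22, 5.25 and 3.81 CPM in uninfected day 5 libraries. The groups were separate, with exposed replicate 2 high and replicate 3 low, and the log2 fold change was 2.08 (SE 0.176, adjusted p = 8.12e-09). At day 1 it was 0.44 (adjusted p = 0.0697). Esd, S-formylglutathione hydrolase, also rose (1.45, adjusted p = 1.69e-07), and Glrx5, a mitochondrial glutaredoxin, and Ggct, which acts on gamma-glutamyl amino acids, fell (-0.77 and -0.33, adjusted p = 7.9e-07 and 0.00167).

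Among glutathione peroxidases and transferases, 5 of 15 rose and 5 fell at day 5 (median 0.26), shares near those of all genes (28.6% and 28.4%), and 2 rose and 0 fell at day 1 (median 0.23). At day 5, 3 rose without uninfected day 5 replicate 1 or 2, without exposed day 5 replicates 2 and 3, with total-count scaling or in the fit of the day 5 libraries alone. At day 1, 4 rose and 1 fell without exposed day 5 replicates 2 and 3, and 6 rose and 2 fell in the fit of the day 1 libraries alone. Mgst3 (-1.57, adjusted p = 0.000101), Gstp1 (-0.93, adjusted p = 1.88e-07) and Gstk1 (-0.83, adjusted p = 8.92e-05) fell at day 5, and Gsta3 rose (1.53, adjusted p = 2.33e-05). Gstp1 has close copies (Gstp2 and Gstp3) whose shared reads may be split. Gpx1, the main cytosolic glutathione peroxidase, averaged 320 CPM in exposed and 205 CPM in uninfected cells at day 1 (0.64, adjusted p = 0.00284). At day 5 its value was 0.42 (adjusted p = 0.0145). This day 5 call was lost without exposed day 5 replicate 3 (0.27, adjusted p = 0.0622) and without exposed day 5 replicates 2 and 3 (0.15, adjusted p = 0.316). It was also lost under further alternatives, among them total-count scaling and the fit of the day 5 libraries alone.

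In the thioredoxin and peroxiredoxin list, which also holds superoxide dismutases, 4 of 19 rose and 9 fell at day 5 (median -0.31), and 5 rose and 4 fell at day 1 (median -0.04). The day 1 count of higher genes was 3 without exposed day 1 replicate 3 or uninfected day 1 replicate 1 or 3 and with no filter, and 2 without uninfected day 1 replicate 4, and 7 fell in the fit of the day 1 libraries alone. Sod2, the mitochondrial superoxide dismutase, rose on both days (0.76 and 2.39, adjusted p = 0.000271 and 2.16e-11). Txnip, the thioredoxin-binding inhibitor, averaged 123 CPM in exposed and 369 CPM in uninfected cells at day 5 (-1.59, adjusted p = 3.66e-09) and was already lower at day 1 (-0.86, adjusted p = 6.72e-05). Prdx4, the peroxiredoxin of the endoplasmic reticulum, was higher at day 1 and lower at day 5 (0.48 and -0.62, adjusted p = 0.00439 and 9.05e-05). Msra, a methionine sulfoxide reductase, fell at day 5 (-0.96, adjusted p = 5.62e-08). Txn1, cytosolic thioredoxin, and Prdx1, an abundant cytosolic peroxiredoxin, were higher at day 1 (0.28 and 0.34, adjusted p = 0.0252 and 0.0291) and not called at day 5 (-0.10 and 0.04, adjusted p = 0.353 and 0.78). Their day 1 calls were lost without uninfected day 1 replicate 4 (adjusted p = 0.0933 for Txn1 and 0.102 for Prdx1) and under further alternatives.

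Of other NRF2 targets, 7 of 24 rose and 8 fell at day 5 (median -0.01), shares near those of all genes (28.6% and 28.4%). At day 1, 1 rose and 5 fell (median -0.11). The 1 became 0 without exposed day 1 replicate 1, 2 or 3, uninfected day 1 replicate 1, 2 or 4 or uninfected day 5 replicate 1, 2 or 3, and with RLE scaling, no filter or the replicate block. It became 2 without exposed day 5 replicate 3 or 4, with total-count scaling or with a filter of 1 CPM in 4 libraries, 3 without exposed day 5 replicate 2 or without replicates 2 and 3, and 5 in the fit of the day 1 libraries alone. Hmox1, heme oxygenase 1, had 567, 1169, 501 and 1079 CPM in exposed day 5 libraries, against 250, 255, 252 and 254 CPM in uninfected day 5 libraries. All exposed libraries were above the uninfected ones, replicates 2 and 4 by the most, as for Slc7a11 and Srxn1. The log2 fold change was 1.72 at day 5 (SE 0.201, adjusted p = 1.16e-06) and -0.06 at day 1 (adjusted p = 0.858). Of the genes for NADPH supply and the pentose phosphate pathway on this list, Taldo1 (-1.60, adjusted p = 3.04e-10), Tkt (-1.14, adjusted p = 2.88e-09) and Idh1, cytosolic isocitrate dehydrogenase (-2.59, adjusted p = 3.22e-11), fell. G6pdx (0.04, adjusted p = 0.824) and Me1 (0.08, adjusted p = 0.433), which also make NADPH, were not called. Ephx1, microsomal epoxide hydrolase, fell (-2.29, adjusted p = 7.07e-09).

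Of the factors that control or partner NRF2, 10 of 20 rose and 6 fell at day 5 (median 0.20), and 2 rose and 2 fell at day 1 (median 0.07). At day 1, 5 rose without exposed day 5 replicates 2 and 3, and 7 rose in the fit of the day 1 libraries alone. The 2 lower became 0 without exposed day 1 replicate 1 or 2 or uninfected day 1 replicate 1, 3 or 4, and 1 without exposed day 1 replicate 3 or 4 or uninfected day 5 replicate 1, 3 or 4. They became 4, 5 and 6 without exposed day 5 replicate 4, 2 and 3, 5 with RLE scaling, DESeq2 or a filter of 1 CPM in 4 libraries, 6 with total-count scaling, and 7 in the fit of the day 1 libraries alone or without exposed day 5 replicates 2 and 3. Bach1, a repressor that competes with NRF2 at Hmox1 and other targets, averaged 31.1 CPM in exposed and 47.7 CPM in uninfected cells at day 5 (-0.62, adjusted p = 7.19e-07), and at day 1 was not called (-0.04, adjusted p = 0.766). Nfe2l1, an NRF2 relative (1.27, adjusted p = 3.98e-07), and Hif1a (1.07, adjusted p = 3.94e-08) rose at day 5, and Nfe2, a blood-cell relative, averaged 58.3 CPM in exposed and 118 CPM in uninfected cells (-1.02, adjusted p = 2.97e-08).

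In the list of ATF4 and the amino acid response, 16 of 27 rose and 4 fell at day 5, with a median log2 fold change of 0.60. At day 1, 8 rose and 2 fell (median 0.28), while 16 rose when exposed day 5 replicates 2 and 3 were left out of the fit and 17 in the fit of the day 1 libraries alone. The lower count was 1 at day 1 without any 1 of the exposed day 1 libraries or uninfected day 1 replicate 1, 2 or 4, and 7 at day 5 without exposed day 5 replicate 2 or with total-count scaling. Asns, asparagine synthetase, had 129, 126, 131 and 114 CPM in exposed day 1 libraries, against 64.1, 67.9, 58.8 and 58.0 CPM in uninfected day 1 libraries, and 229, 331, 149 and 303 CPM in exposed day 5 libraries, against 81.7, 77.5, 72.0 and 53.6 CPM in uninfected day 5 libraries. Exposed libraries were higher throughout, and at day 5 replicates 2 and 4 were again high and replicate 3 low. Its log2 fold change was 1.00 at day 1 (adjusted p = 0.000922) and 1.83 at day 5 (adjusted p = 2.72e-07). Atf4 itself was 0.46 at day 5 (adjusted p = 0.00168) and 0.19 at day 1 (adjusted p = 0.225). Ddit3, the stress factor CHOP, was 2.01 at day 5 (adjusted p = 6.73e-08), with reads that may be shared with an overlapping gene of the same symbol. Ddit4, an inhibitor of mTORC1 signalling, was 1.93 (adjusted p = 3.59e-08), and Eif2ak2, the kinase PKR, was 1.78 at day 5 and 1.53 at day 1 (adjusted p = 9.24e-11 and 5.96e-09).

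Among lipid peroxidation and ferroptosis genes, 5 of 13 rose and 7 fell at day 5 (median -0.23), and 4 rose and 2 fell at day 1 (median -0.11). The 2 became 0 without exposed day 1 replicate 1 or 4 or uninfected day 1 replicate 1, 3 or 4 and with no filter, 1 without exposed day 1 replicate 3, uninfected day 1 replicate 2 or uninfected day 5 replicate 1, 2 or 4 and with the replicate block, and 5 in the fit of the day 1 libraries alone. Acsl4, which loads polyunsaturated fatty acids into lipids, averaged 530 CPM in exposed and 232 CPM in uninfected cells at day 5 (1.19, adjusted p = 1.56e-09). Enzymes that protect lipids beside GPX4 were also higher at day 5: Aifm2, a coenzyme Q reductase (0.85, adjusted p = 2.54e-09), and Gch1, which starts tetrahydrobiopterin synthesis (1.08, adjusted p = 4.34e-09). Alox5, 5-lipoxygenase, fell (-2.32, adjusted p = 1.48e-07). Of selenoprotein synthesis genes and selenoproteins, 2 of 14 rose and 5 fell at day 5 (median -0.00), and 6 rose and 2 fell at day 1 (median 0.13). Without exposed day 1 replicate 2 or 3 or uninfected day 1 replicate 4, or with no filter, 3 rose at day 1, and 5 fell in the fit of the day 1 libraries alone. At day 5, 4 rose with a filter of 1 CPM in 4 libraries. Sephs2, which makes the selenium donor that GPX4 and TXNRD1 need, fell at day 5 (-1.21, adjusted p = 1.91e-08), as did its relative Sephs1 (-0.97, adjusted p = 4.64e-09) and Selenoh (-0.97, adjusted p = 0.000432), while Selenow rose (1.38, adjusted p = 2.72e-09).

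**Figure D4:**
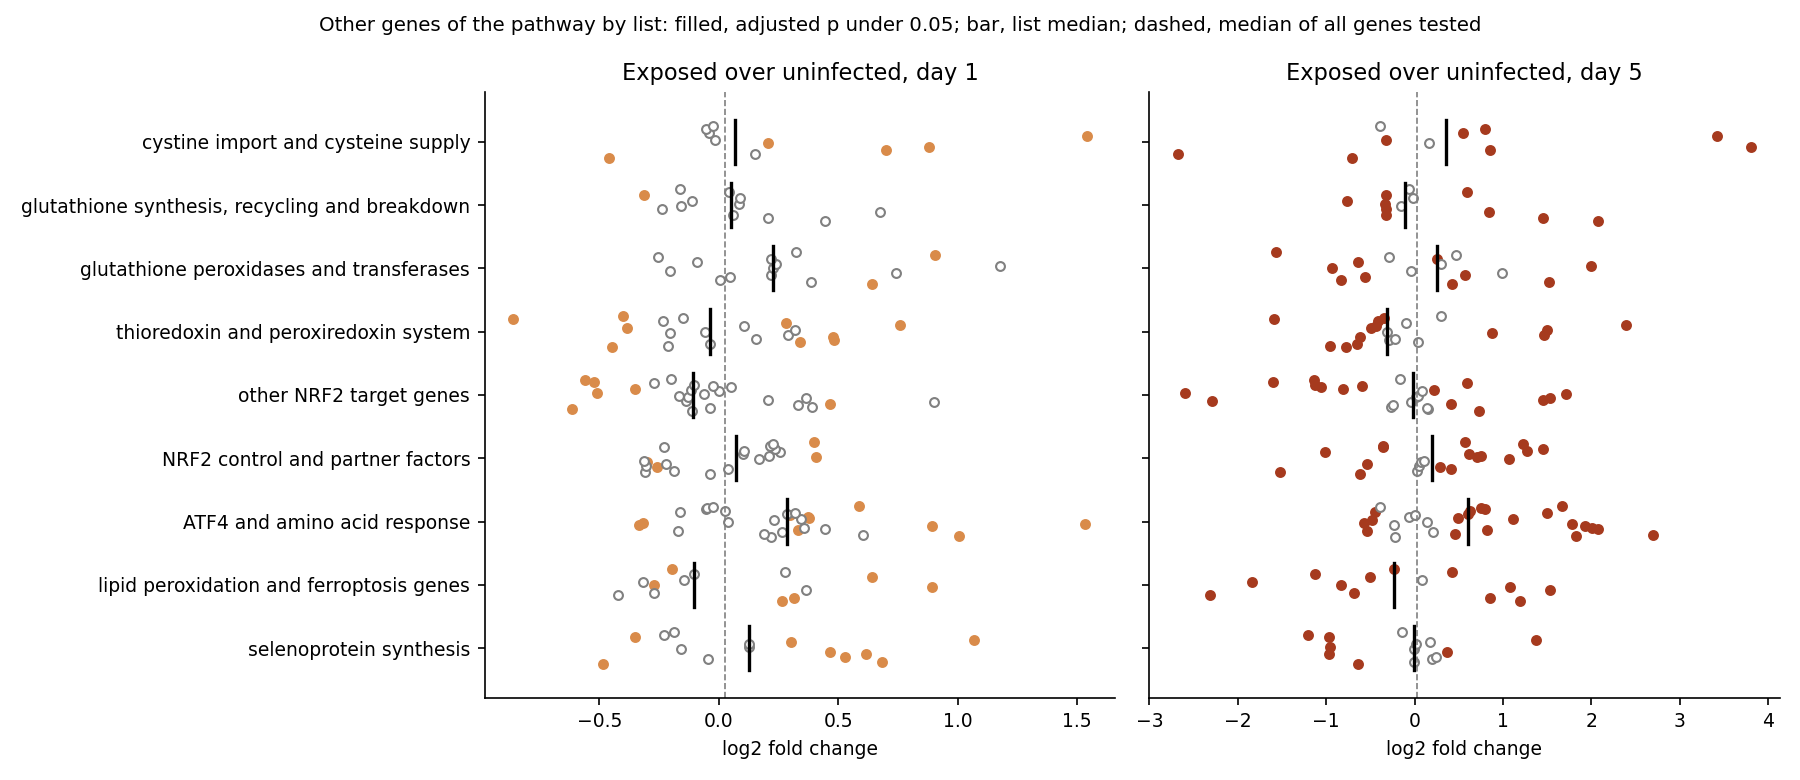
Log2 fold change of exposed over uninfected cells for the tested genes of the 9 lists at day 1 (left) and day 5 (right), on different axes; filled points have an adjusted p under 0.05, bars are list medians and the dashed line is the median of all genes tested. The list of ATF4 and the amino acid response has the highest of the 9 medians on both days (0.28 and 0.60), and the thioredoxin and peroxiredoxin list the lowest at day 5 (-0.31).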

How the data were processed

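Poly-A RNA from 16 libraries (4 groups of 4) was sequenced, and reads were aligned with STAR to GRCm39, per the submitters' processing notes. Each library has a deposited file of unnormalised read counts by gene, and how multi-mapped reads were counted is not given in the sources used here. Symbols came from GENCODE M21 for 52083 of 55359 genes, and exon lengths from the same annotation.

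Genes were kept by edgeR's filterByExpr by group (17190 genes) and scaled by TMM. With edgeR 4.0.16 in R 4.3.3, all 16 libraries entered a robust quasi-likelihood fit with a mean per group. Tests were two-sided with Benjamini-Hochberg adjustment over all genes tested, and SE is the log2 fold change divided by the square root of F. The fit was tested on simulated data. Ratios were tested by exact permutation. Intervals and p-values cover these libraries alone.

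The members and the gene lists were chosen with earlier results of these data known. Genes named are the members, 13 others chosen by role, and from each list the 3 with the smallest day 5 p and 1 more with the smallest p for the change of effect. Lists were described by counts and medians. Likeness used log2(CPM + 0.5). Alternatives were RLE scaling, DESeq2 1.42.0, other filters, smaller fits, a replicate block and left-out libraries.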

Additional observations from a re-analysis of the deposited data

Results flagged for a closer look

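In exposed day 5 libraries 1 library stood apart for 2 readouts, by Dixon's criterion (the gap to the nearest library as a share of the group's range, set against the critical value for 4 libraries). Gclm in replicate 3 (62.8 CPM, against 83.8 to 86.8 CPM in the others) gave 0.873, and the Gclc to Gclm log2 ratio of the same library gave 0.84. These are 2 of 52 groups tested, and chance flags about 1 in 20.

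The exposure effect differed between day 5 and day 1 (interaction term of edgeR's quasi-likelihood test, adjusted p under 0.05) for 40 of 55 named genes, of which 5 are members. Many of the 55 were picked by a small p for this same change or for day 5, and over all genes tested the effect was higher at day 5 for 16.4% and lower for 19.5%, so nothing is read from the count. The values below are day 5 minus day 1 differences of the log2 fold change. Among members it was 2.41 for Slc7a11, 0.95 for Srxn1, 0.77 for Txnrd1, -0.86 for Gclc and -0.94 for Gsr. Among genes of cystine and cysteine supply it was 2.93 for Cth, 1.88 for Slc1a4, 0.85 for Slc3a2 and 0.59 for Slc1a5. In glutathione synthesis and breakdown it was 1.63 for Chac1, 1.24 for Esd, -0.66 for Glrx5 and -0.39 for Ggct. For transferases it was 1.14 for Gsta3, -0.84 for Gstk1, -1.16 for Gstp1 and -1.90 for Mgst3. In the thioredoxin list it was 1.63 for Sod2, -0.38 for Txn1, -0.73 for Txnip, -0.75 for Msra and -1.10 for Prdx4. For NRF2 targets it was 1.78 for Hmox1, -0.58 for Tkt, -1.08 for Taldo1, -2.08 for Idh1 and -2.15 for Ephx1. For NRF2 partners it was 1.17 for Nfe2l1, 0.90 for Hif1a, -0.58 for Bach1 and -1.27 for Nfe2. In the amino acid response it was 1.65 for Ddit3, 1.03 for Ddit4 and 0.83 for Asns. For lipid peroxidation genes it was 0.93 for Acsl4, 0.54 for Aifm2 and -1.89 for Alox5, and for selenoprotein genes -0.62 for Sephs1, -0.98 for Sephs2 and -1.58 for Selenoh.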

How the results depend on the processing

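No value of the members, the other named genes or the count ratios changed sign against its call under the alternatives run. Members' fold changes kept their side of the threshold in 1134 settings, lost a call in 29 and gained one in 27. All 126 settings of the count ratios stayed within the spread of the libraries. Those listed under the replicate block repeat the main value, so they say nothing about pairing. The members called in exposed against uninfected cells stayed within 2 to 3 higher and 3 to 4 lower at day 1, and 4 to 5 higher and 3 to 4 lower at day 5, with each library left out in turn. Between days in uninfected cells the 1 higher member fell to 0 with RLE scaling, total counts, no filter, the replicate block or that comparison's libraries alone, and was 0 to 1 with a library left out. The 3 lower members became 5 in the last of these fits and 1 with no filter, and were 2 to 4 with a library left out.

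Over all genes, the day 1 counts of 2297 higher and 1800 lower were 3650 and 3371 when the 8 libraries of that comparison were fitted alone, and lower genes were 2894 without exposed day 5 replicates 2 and 3. In uninfected cells the counts of 1852 higher and 1532 lower between days were 3386 and 3038 in the fit of that comparison alone and 2800 and 2513 without those replicates. With a library left out they were 1227 to 2436 and 881 to 2221. Leaving out a library leaves fewer samples, and for the other settings the cause was not tested. Deviations of same-numbered libraries from their group means had correlations of -0.15 to 0.15 over all genes. Differently numbered libraries were not compared, so whether the numbers mark a shared origin is not settled. With the replicate block 4 members were higher and 3 lower at day 5, Nqo1 being lost (adjusted p = 0.0505). The count ratios were not fitted with a block. Total-count scaling and the counts of lists under each alternative were added after seeing the data. List counts moved by over 1.5 times in 238 settings and not in 1904, over all comparisons, with the moves between exposed and uninfected cells given beside the lists. Total counts shifted the median of all genes by -0.104 (log2) between days in exposed cells. For exposed against uninfected cells at day 5 the shift was -0.0863, and Keap1 was then called lower in that comparison (-0.27, adjusted p = 0.0223).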
